A study of Mus musculus with 3 samples.

Results

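The 9 genes described here encode regulators known from fetal growth programmes. They are the mRNA-binding proteins Igf2bp1, Igf2bp2 and Igf2bp3, the let-7 processing inhibitor Lin28b, the chromatin architectural protein Hmga2, the SOXC transcription factors Sox4 and Sox11, and the secreted heparin-binding growth factors Mdk (midkine) and Ptn (pleiotrophin). They were chosen by symbol, with earlier results of these data known. They are 9 of the 32285 genes counted in every library, and all 9 were found. The data were droplet single-cell RNA-seq counts with 3′ end capture from the mandibular condyle, the cartilage-capped head of the lower jaw in the temporomandibular joint. The mice were wild-type C57BL6, with no engineered allele and no treatment named, and were sampled at embryonic day 16.5 (E16.5), on postnatal day 0 (P0) and as adults aged 13 weeks (13w). Each stage was 1 library, pooled from 7 to 20 mice, dispersed with collagenase A and dispase 2 and sorted for live cells, positive for Calcein and negative for DAPI.

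A stage therefore had no replicate, no test between stages or cell groups was possible, and every difference below lacks a replicate check. Levels are unique molecular identifiers (UMIs, single captured RNA molecules) of a gene per 1000000 UMIs of all genes in the same cells (CPM). Each was summed over cells and is given with an exact Poisson 95% interval where one is printed. Ratios carry an exact conditional binomial 95% interval. All intervals and floors cover counting error only, and cells of 1 library were not treated as replicates. A gene was counted as measured in a comparison if the higher side had at least 1 CPM and 10 UMIs, and was called lower or higher if the sides differed at least 2-fold. Levels were compared within a gene and not between genes.

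Cells with at least 500 detected genes and at most 10% mitochondrial UMIs were kept, which left 4562 of 5458 barcodes at E16.5, 3999 of 4853 at P0 and 8028 of 8899 at 13w. The kept cells held 100546288, 94002214 and 113130140 UMIs, with medians per cell of 17401.5, 17954 and 11010. All 10 chondrocyte markers examined were above 0 in each library, and their summed level was 9776, 25787 and 23869.6 CPM from the youngest to the oldest. Cells carrying at least 3 blood markers numbered 179, 19 and 402 in stage order, and cells carrying endothelial markers 54, 39 and 26. The summed blood list stood at 442, 33.0 and 205 CPM. E16.5 and P0 shared 14 cell barcodes, E16.5 and 13w shared 11, and P0 and 13w shared 8, and the counts of lower and higher members were the same without them.

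IGF2BP proteins bind mRNAs, in part through m6A marks, and stabilise or localise them, and they are best known as oncofetal proteins that are abundant before birth and scarce in most adult tissues. LIN28B blocks maturation of the let-7 microRNAs, while let-7 represses a set of growth-promoting mRNAs of which Hmga2, Lin28b and the Igf2bp family are classic members. SOX4 and SOX11 are high-mobility-group box factors of skeletal and neural progenitors, and midkine and pleiotrophin are related cytokines that bind syndecans, PTPRZ1, LRP1 and integrins, with pleiotrophin abundant in fetal cartilage.

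The let-7 link is a matter of sequence, so the microRNAs and their matches in the members are shown before the values. In the RefSeq annotation of GRCm38.p6, 11 mouse microRNAs shared the let-7 seed GAGGUAG at bases 2 to 8, printed here in capitals for 4 of them.
mmu-let-7a-5p: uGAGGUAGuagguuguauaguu
mmu-let-7c-5p: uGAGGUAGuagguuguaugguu
mmu-let-7i-5p: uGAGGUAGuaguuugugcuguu
mmu-miR-98-5p: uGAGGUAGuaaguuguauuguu

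The reverse complement CTACCTC was searched on the sense strand of the longest 3′ UTR annotated for each gene in GENCODE M21. It was found in 5 of the 9 members, with 4 matches in Igf2bp1, 4 in Hmga2, 4 in Lin28b, 1 in Igf2bp2 and 1 in Igf2bp3. The matches in the 4 of these genes that were measured are shown with the flanking bases, match in capitals and position counted from the first base of the UTR.
Igf2bp1, 1715: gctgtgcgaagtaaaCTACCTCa
Igf2bp1, 4136: cagcagtgctattaaCTACCTCa
Igf2bp1, 4730: gtataaatggatgaaCTACCTCa
Igf2bp1, 5353: acttttggttttaatCTACCTCt
Igf2bp2, 1313: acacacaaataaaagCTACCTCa
Igf2bp3, 548: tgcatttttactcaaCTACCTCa
Hmga2, 58: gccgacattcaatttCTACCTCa
Hmga2, 1295: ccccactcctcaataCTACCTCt
Hmga2, 1733: ctgatttgcaaggaaCTACCTCc
Hmga2, 2591: aatcaaaacacactaCTACCTCt

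Sox4, Sox11, Mdk and Ptn had 0 matches. Of the 20622 UTRs searched, 9.12% held at least 1 match and 0.155% held 3 or more. Long UTRs hold more matches by their length, so each member was set beside UTRs of 0.8 to 1.25 times its own length. There, 0.332% held as many as the 6337-base UTR of Igf2bp1, 0.124% as many as the 3014-base UTR of Hmga2, and 0.297% as many as the 4445-base UTR of Lin28b. At least 1 match, as in Igf2bp3, was found in 13.3% of UTRs of its length. The match was followed by A in 3 of the 4 places in Igf2bp1 and in 1 of the 4 in Hmga2. These letters describe the sequences only, and mature let-7 was not measured by this assay.

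Across the stages the 9 genes fell into 3 patterns (the plot of levels by stage). Over all kept cells, the 3 Igf2bp genes, Sox11 and Mdk were lower at P0 than at E16.5 and lower again at 13w. In the adult library Igf2bp1, Igf2bp2 and Sox11 were below 1 CPM. The step of Igf2bp3 from E16.5 to P0 differed between cell classes, as described below. Hmga2 and Sox4 kept nearly the same level at all 3 ages. Ptn was lower at each later stage, with the larger fold between E16.5 and P0 over all kept cells. Within each of the classes by Col9a1 described below, the larger fold lay between P0 and 13w. Lin28b was close to the detection limit throughout.

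**Figure D1:**
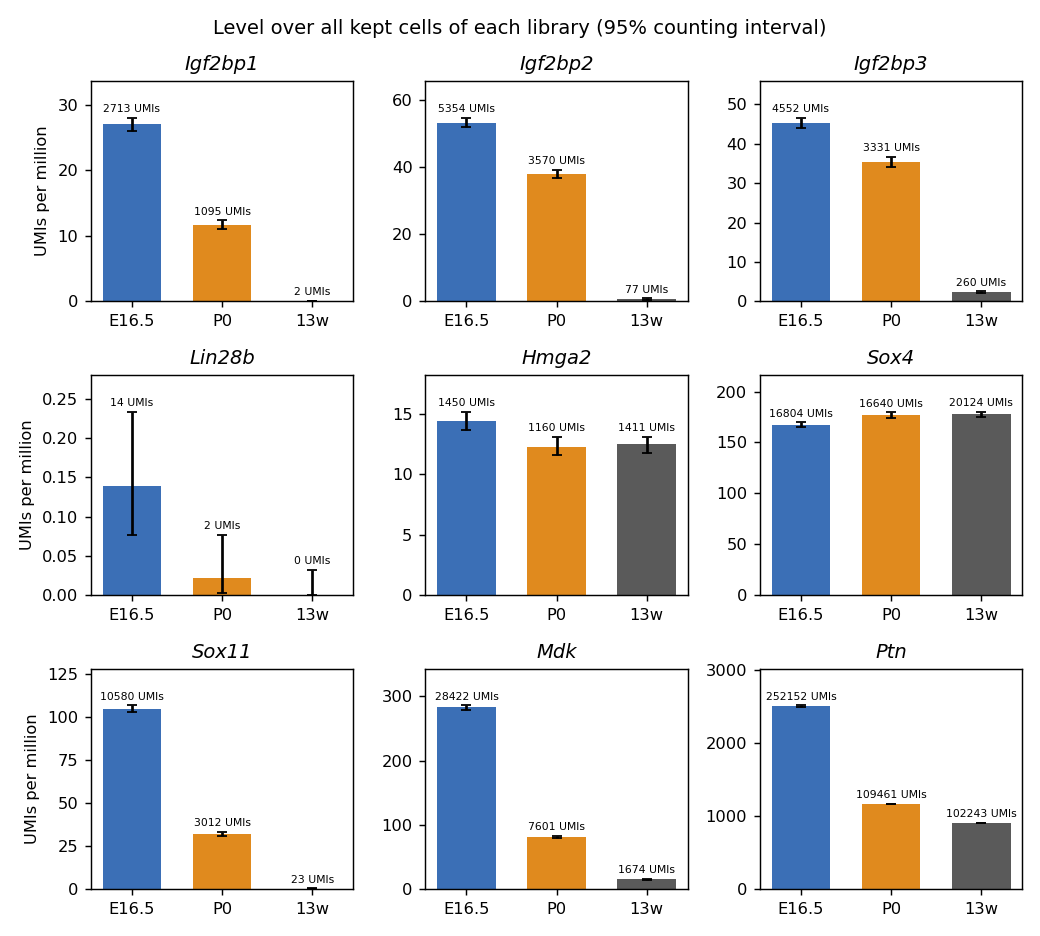
Bars give the level of each of the 9 genes in CPM on linear axes from 0, 1 bar for each of the E16.5, P0 and 13w libraries, with exact Poisson 95% intervals covering counting error only and the UMIs counted above each bar. Igf2bp1, Igf2bp2, Igf2bp3, Sox11 and Mdk descend from left to right, Hmga2 and Sox4 are nearly level, and Ptn descends from 2508 to 904.

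Igf2bp1, which binds and stabilises mRNAs such as Myc, was counted at 27.0 CPM (26.0 to 28.0; 2713 UMIs) at E16.5, 11.6 CPM (11.0 to 12.4; 1095 UMIs) at P0 and 0.0177 CPM (0.00214 to 0.0639) at 13w, the last from 2 UMIs. It was 2.32-fold lower at P0 than at E16.5 (2.16 to 2.49) and 659-fold lower at 13w than at P0 (182 to 5448). The wide second interval reflects the 2 adult molecules, while the counting intervals of the 3 libraries do not overlap.

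Igf2bp2, the family member most often reported in adult tissues such as muscle, was at 53.2, 38.0 and 0.681 CPM in the 3 libraries by age. It was 1.40-fold lower at P0 (1.34 to 1.46) and then 55.8-fold lower at 13w than at P0 (44.5 to 70.9). Most of the decline in this gene thus lay between birth and adulthood, and 77 UMIs remained among the adult cells.

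Igf2bp3, the third RNA-binding paralogue, was at 45.3, 35.4 and 2.30 CPM in stage order, 1.28-fold lower at P0 (1.22 to 1.34) and 15.4-fold lower at 13w than at P0 (13.6 to 17.6). With 260 adult UMIs it was the family member with the smallest fold between the newborn and the adult library. Its exons overlap those of Malsu1 on the opposite strand, and whether counting used strand was not stated in the labels or files. Malsu1 was counted as a gene of its own, at 54.2, 75.4 and 51.0 CPM in stage order. Whether any of its reads were counted for Igf2bp3 was not tested.

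Lin28b gave 14 UMIs in the embryonic library, each in a different cell, 2 in the newborn and 0 in the adult. These 14 UMIs correspond to 0.139 CPM (0.0761 to 0.234), and 0 UMIs at 13w allow up to 3, which is 0.0265 CPM. The ratio of E16.5 to P0 was 6.54 with a counting interval of 1.50 to 59.3, and the gene did not reach the limit for being measured in any comparison. Differences in Lin28b between cell groups were not detectable at this depth.

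Hmga2, which bends AT-rich DNA and is associated with fetal mesenchymal growth, stood at 14.4 CPM at E16.5 (13.7 to 15.2), 12.3 at P0 and 12.5 at 13w. The log2 difference of P0 from E16.5 was -0.22 and that of 13w from P0 was 0.02. The adult library thus held Hmga2 at nearly its newborn level. The Igf2bp genes were 15.4- to 659-fold lower at 13w than at P0. Of these only Igf2bp1 had as many let-7 seed matches as Hmga2, and a relation between matches and folds was not tested. A non-coding gene on the opposite strand of Hmga2, 1700006J14Rik, was counted at 0.234 to 0.354 CPM.

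Sox4 and Sox11 encode close relatives with overlapping roles in skeletal progenitors, but their stage courses differed. Sox4 was at 167, 177 and 178 CPM in stage order. Sox11 was at 105 CPM (103 to 107), 32.0 CPM and 0.203 CPM, the last from 23 UMIs. Sox11 was 3.28-fold lower at P0 than at E16.5 (3.15 to 3.42) and 158-fold lower at 13w than at P0 (105 to 249), a course like that of the Igf2bp genes. Of the 23 adult Sox11 UMIs, 26.1% came from the 26 cells with endothelial markers. Sox11 stood there at 35.1 CPM (12.9 to 76.3) from 6 UMIs. The 188 Prg4-high cells, a class described below, gave 7 of the 23 UMIs, at 5.07 CPM (2.04 to 10.4). Without cells bearing markers of other types the adult level was 0.158 CPM and the fold from P0 was 199.

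Mdk, a growth factor of embryonic mesenchyme, was at 283 CPM at E16.5 (279 to 286), 80.9 at P0 and 14.8 at 13w, 3.50-fold lower at P0 (3.41 to 3.59) and 5.46-fold lower at 13w than at P0 (5.18 to 5.76). Unlike the Igf2bp genes and Sox11 it still gave 1674 UMIs in the adult library. Ptn was at 2508, 1164 and 904 CPM, 2.15-fold lower at P0 (2.14 to 2.17) and 1.29-fold lower at 13w than at P0 (1.28 to 1.30).

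Read against all genes, 4 of the 8 measured members were at least 2-fold lower at P0 than at E16.5 (Igf2bp1, Sox11, Mdk and Ptn), where 13.7% of the 13426 genes measured were lower, and 0 of 8 were higher, where 6.23% were. Between P0 and 13w, 5 of 8 were lower (the 3 Igf2bp genes, Sox11 and Mdk), where 11.7% of 13316 genes were lower, and 0 of 8 were higher, where 12.1% were. The members' median log2 difference was -0.80 and -3.20, beside -0.17 and -0.10 over all genes. The members were chosen with earlier results of these data known, so these counts and medians are descriptions only. Scaling by TMM factors brought the medians of all genes to 0.01 and 0.07, and the share of higher genes among those called from 31.3% to 47.6% and from 51.0% to 61.3%. The fold of Ptn between E16.5 and P0 then no longer reached 2, with a log2 difference of -0.93, while Igf2bp1, Sox11 and Mdk kept their calls.

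The share of cells in which a gene was seen was lower at each later stage for the Igf2bp genes, Sox11, Mdk and Ptn, and for Sox4 it did not follow the level. After every cell was thinned to 3000 UMIs, which left out 170, 124 and 321 shallower cells, Igf2bp1 was detected in 7.45% of cells at E16.5, 3.35% at P0 and 0 of 7707 cells at 13w, which allows up to 0.0389%. Without thinning these shares were 36.6%, 20.0% and 0.0249%. Sox11 was detected in 28.6%, 12.1% and 0.143% of thinned cells, Mdk in 51.1%, 21.9% and 4.42%, and Ptn in 84.0%, 69.7% and 55.2%. Hmga2 was detected in 4.08%, 3.69% and 3.27%, and Sox4 in 38.3%, 30.3% and 32.5%. Unthinned shares were 66.7%, 35.0% and 0.212% for Sox11, 85.0%, 60.2% and 9.72% for Mdk, 93.2%, 84.5% and 68.4% for Ptn, 16.7%, 14.3% and 11.6% for Hmga2, and 79.5%, 68.1% and 58.5% for Sox4. In cells with blood markers, whose median depth was 9958, 9574 and 8643.5 UMIs, Ptn was detected in 17.6%, 23.5% and 14.8% of thinned cells. These cells serve as a comparison only, and free RNA itself was not measured. From levels summed over cells, fewer cells expressing a gene and less RNA per cell cannot be told apart.

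Col9a1, a collagen of the cartilage matrix, was used to divide the cells. Cells with at least 3 Col9a1 UMIs per 10000 (Col9a1-high) were 22.2% of embryonic, 43.7% of newborn and 20.2% of adult cells. They were deeper than the rest, with medians of 40311.5 against 14937 UMIs at E16.5, 36409.5 against 11771 at P0 and 23612 against 9547 at 13w. The class does not hold all chondrocyte-like cells, since at 13w Sox9 was at 757 CPM inside and 659 CPM outside it, Acan at 2136 and 1095, and Col2a1 at 42076 and 3189. The limit divides a range, and 153, 114 and 270 cells lay between 2 and 3 UMIs per 10000, with 86, 57 and 183 between 3 and 4. Both groups came from the same library, so a contrast within a stage is free of differences between libraries. The groups still differed in depth and in other cell types. At E16.5 the summed blood markers were at 47.4 CPM in Col9a1-high cells and 687 CPM in the rest.

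The secreted factors and Sox11 were lower in Col9a1-high cells, and the Igf2bp genes, Hmga2 and Sox4 differed by less than 2-fold (the plot of Col9a1-high against other cells). Ptn was at 463 CPM in Col9a1-high cells and 3772 CPM in the rest at E16.5, at 273 and 2969 at P0, and at 111 and 1359 at 13w. These are differences of 8.15-fold (8.02 to 8.27), 10.9-fold (10.7 to 11.0) and 12.2-fold (11.9 to 12.6). Cells with blood markers held Ptn at 314, 297 and 202 CPM. At 13w Col9a1-high cells were below them in CPM and had Ptn in 14.5% of thinned cells against 14.8%. The source of their adult Ptn was not tested. At P0 they were below in CPM but above in share, at 36.2% of thinned cells against 23.5% of 17 blood-marker cells, and at E16.5 they were above in both, at 53.0% against 17.6%.

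Sox11 was 4.04-fold lower in Col9a1-high cells at E16.5 (36.6 against 148 CPM) and 8.58-fold lower at P0 (9.14 against 78.4 CPM). At 13w all 23 Sox11 UMIs lay outside the 1621 Col9a1-high cells. Mdk was 4.80-fold lower in Col9a1-high cells at E16.5 (84.5 against 405 CPM), 2.57-fold lower at P0 (53.2 against 137 CPM) and 3.84-fold lower at 13w (5.28 against 20.3 CPM). Cells with endothelial markers held Mdk at 13.5 and 13.6 CPM at E16.5 and P0, below the Col9a1-high cells. At 13w they stood above those cells, at 17.5 CPM (3.62 to 51.3) from 3 UMIs. Cells with blood markers held Mdk at 43.0, 3.54 and 2.62 CPM in stage order, below the Col9a1-high cells each time. The P0 value came from 1 UMI. In cells with blood markers Sox11 was at 13.0 CPM at E16.5 and 3.54 CPM at P0, below the Col9a1-high cells.

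**Figure D2:**
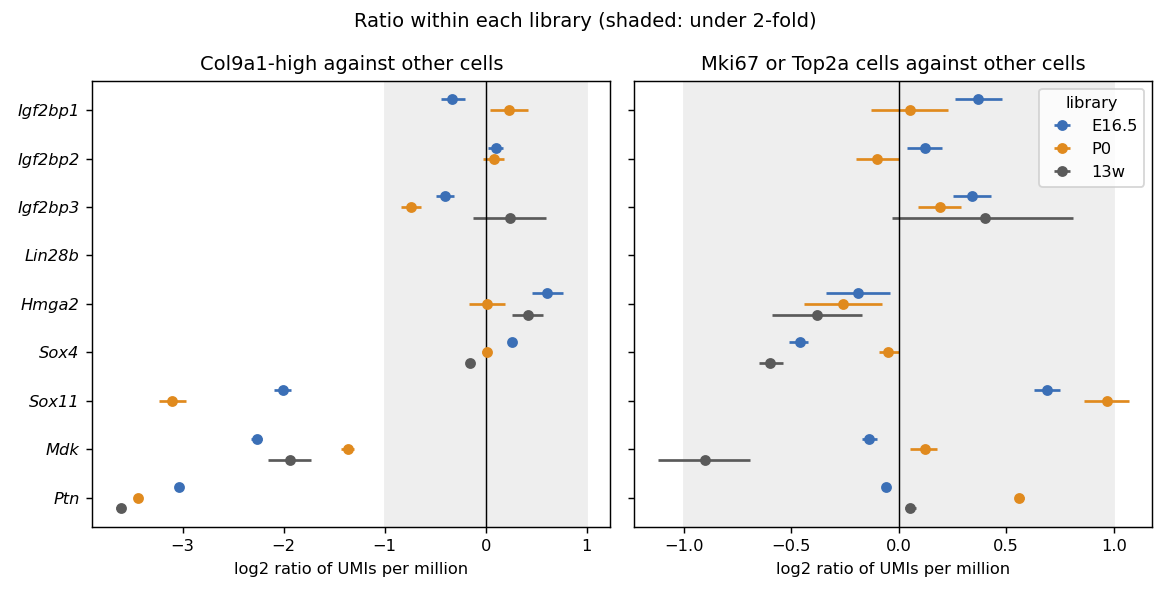
Points give the log2 ratio of each gene's CPM in Col9a1-high cells against the other cells (left) and in cells with Mki67 or Top2a against the other cells (right), coloured by library, with exact 95% counting intervals and only where the gene was measured. Ptn, Mdk and Sox11 lie below -1 in the Col9a1 contrast at E16.5 and P0, while in the cycling contrast the members measured at each stage lie between -1 and 1.

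Among the RNA-binding proteins the Col9a1 contrast was small, and each was also counted outside the Col9a1-high class. At E16.5 cells with blood markers held Igf2bp3 at 64.0 CPM, above both Col9a1 classes. They held Igf2bp1 at 19.9 and Igf2bp2 at 16.6 CPM, below both classes, and free RNA was not measured. Igf2bp1 was at 23.3 CPM in Col9a1-high cells and 29.2 in the rest at E16.5, and at 12.3 and 10.4 at P0. Igf2bp2 was at 55.4 and 51.9 CPM at E16.5, and at 38.6 and 36.6 at P0. Igf2bp3 was the one that leaned to the cells low in Col9a1, at 37.7 against 49.9 CPM at E16.5 and 29.0 against 48.4 at P0, a 1.67-fold difference (1.56 to 1.79). With median-of-ratios factors in place of all UMIs, the E16.5 contrast of Igf2bp1 changed sign, from -0.33 to 0.03 on the log2 scale.

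Hmga2 leaned the other way at E16.5, 1.53-fold higher in Col9a1-high cells (1.37 to 1.69; 18.3 CPM in the Col9a1-high cells), was level at P0 (12.4 against 12.3 CPM), and was 1.33-fold higher at 13w (1.20 to 1.48; 14.8 against 11.1 CPM). Sox4 was at 186 against 155 CPM at E16.5, 177 against 176 at P0 and 165 against 185 at 13w, the last contrast moving from -0.16 to 0.21 on the log2 scale with TMM factors.

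In counts, 3 of 8 measured members were at least 2-fold lower in Col9a1-high cells at E16.5, where 24.9% of genes were, 3 of 8 at P0, where 21.2% were, and 2 of 5 at 13w, where 19.1% were. Members higher by that measure were 0 of 8, 0 of 8 and 0 of 5, where 8.82%, 10.7% and 3.83% of genes were higher. The members' median log2 ratios of -0.37, -0.37 and -0.16 stood beside -0.31, -0.20 and -0.37 over all genes, so the members as a group did not stand below all genes in this contrast as Ptn, Mdk and Sox11 did. With TMM factors the all-gene medians were 0.02, 0.08 and 0.02, and the share of higher genes among those called was 41.8% in place of 26.1% at E16.5, 47.9% in place of 33.4% at P0 and 34.8% in place of 16.7% at 13w.

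Ptn, Sox11 and Mdk were also followed over 5 bins of Col9a1 (the plot of levels over Col9a1 bins). At E16.5 Ptn was at 4778 CPM in cells with 0 Col9a1 UMIs, 2538 in cells with some but under 3 per 10000, 922 from 3 to 10, 198 from 10 to 30, and 80.7 in the 41 cells at 30 or more. Sox11 went through 161, 131, 69.4, 17.4 and 15.4 CPM over the same bins. Mdk went through 523, 261, 111 and 67.7 CPM and then stood at 97.9 CPM in the 41 highest cells, so its gradient did not continue there. At P0 Ptn was level at 2983 and 2955 CPM in the first bins and lower only from 3 UMIs per 10000 upward, at 901, 193 and 33.8 CPM.

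**Figure D3:**
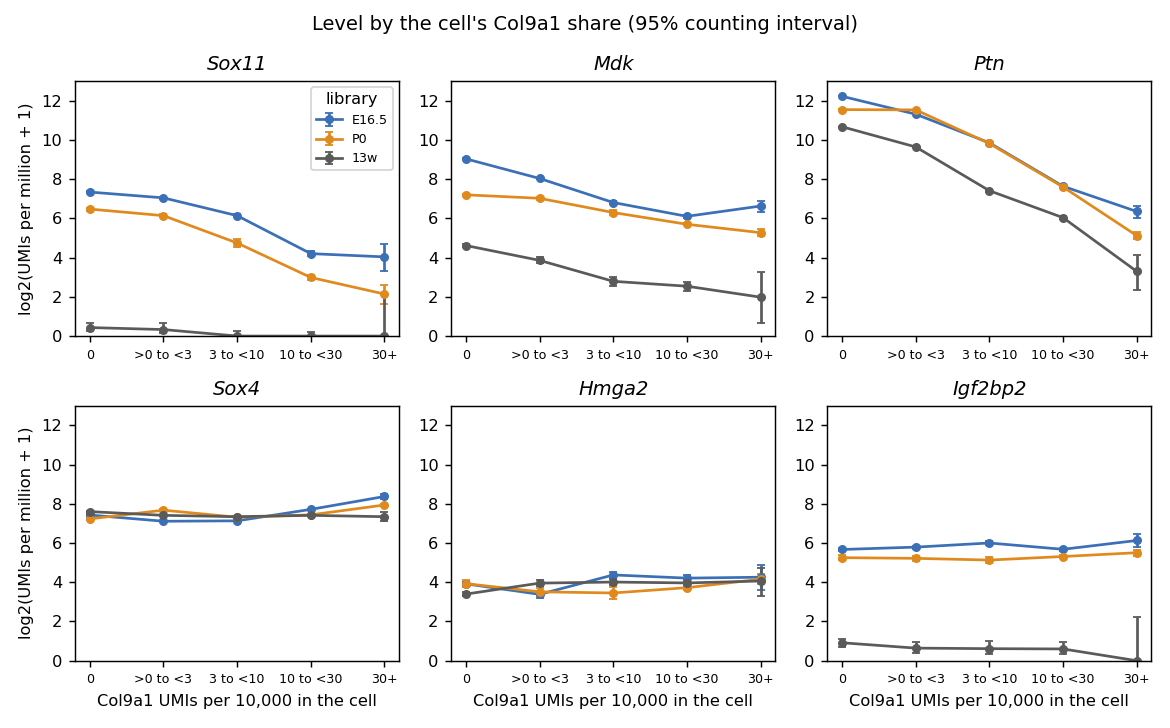
Points give log2(CPM + 1) of Sox11, Mdk, Ptn, Sox4, Hmga2 and Igf2bp2 over 5 bins of the cell's Col9a1 UMIs per 10000, with a line per library and exact Poisson 95% intervals. Ptn, Sox11 and Mdk slope downward toward high Col9a1 at E16.5 and P0, and Sox4, Hmga2 and Igf2bp2 show no such slope.

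Because the share of Col9a1-high cells differed between stages, the stage differences were also taken within each class. Ptn was 1.69-fold lower at P0 than at E16.5 within Col9a1-high cells and 1.27-fold lower in the rest (3772 to 2969 CPM), both less than the 2.15-fold over all cells. From P0 to 13w the order was turned, with Ptn 2.46-fold lower within Col9a1-high cells and 2.18-fold lower in the rest. Both were more than the 1.29-fold over all cells, and the adult Col9a1-high level was below that of cells with blood markers. With equal weight for the 4 groups made by Col9a1 and cycling, the log2 difference of Ptn was -0.45 from E16.5 to P0 and -1.15 from P0 to 13w, so the first call was lost and the second gained.

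Sox11 was lower at P0 in each class, 4.00-fold in Col9a1-high cells (3.63 to 4.42) and 1.88-fold in the rest (1.80 to 1.97). Igf2bp1 was 1.90-fold lower in Col9a1-high cells and 2.81-fold lower in the rest, and Mdk 1.59-fold and 2.96-fold lower. Igf2bp3 went from 46.0 to 33.0 CPM in cycling and from 31.8 to 27.0 CPM in other Col9a1-high cells. Outside the class it went from 51.6 to 46.8 CPM in cycling cells and from 47.1 to 49.7 CPM in the others. Its lower level at P0 thus lay mainly inside the Col9a1-high class. From P0 to 13w Igf2bp2 was 75.9-fold lower in Col9a1-high cells and 47.0-fold lower in the rest, and Igf2bp3 11.4-fold and 22.4-fold lower, so the adult scarcity of these genes was present inside and outside the Col9a1-high class. Sox11, at 0 UMIs in adult Col9a1-high cells, was at least 126-fold lower there than at P0, taking 3 UMIs over the group as the floor.

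Mki67 and Top2a mark dividing cells, and cells with a UMI of either (cycling) were 48.3% of embryonic, 30.6% of newborn and 13.8% of adult cells. A deeper cell is more often positive, and the cycling cells had medians of 22089 against 13531.5 UMIs at E16.5, 23173 against 14747 at P0 and 18357 against 10293 at 13w. At 13w the summed blood markers were at 463 CPM in cycling cells and 141 CPM in the rest, and with cells bearing markers of other types left out, 0 members were called in the adult contrast.

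Cycling and other cells differed by less than 2-fold in each measured member. Of the measured members 0 of 8 were at least 2-fold lower at E16.5, where 4.68% of genes were, 0 of 8 at P0, where 0.375% were, and 0 of 5 at 13w, where 2.45% were. Those at least 2-fold higher were 0 of 8, 0 of 8 and 0 of 5, beside 4.12%, 3.93% and 10.2% of genes. The members' medians of 0.03, 0.08 and -0.38 on the log2 scale stood beside 0.00, 0.04 and 0.04 over all genes.

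Sox11 leaned most to cycling cells in the 2 young stages, 1.61-fold higher at E16.5 (1.55 to 1.68; 127 against 78.5 CPM) and 1.95-fold higher at P0 (1.82 to 2.10; 46.5 against 23.8 CPM). Sox4 leaned the other way, at 143 against 197 CPM at E16.5 and 126 against 191 CPM at 13w, with 173 against 179 CPM at P0. Igf2bp1 was 1.29-fold higher in cycling cells at E16.5 (1.19 to 1.40) and level at P0 (11.9 against 11.5 CPM), and Igf2bp3 was 1.27-fold and 1.14-fold higher. Hmga2 was lower in cycling cells at all 3 stages, at 13.6 against 15.5, 11.0 against 13.1 and 10.1 against 13.1 CPM. Its adult log2 difference of -0.38 became -1.33 with classes taken from thinned cells and -1.02 with 3 or more other mitotic genes as the mark of division.

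The cycling contrast of Sox11 and Ptn was larger inside the Col9a1-high class. There Sox11 was 3.18-fold higher in cycling cells at E16.5 (2.84 to 3.58; 60.7 against 19.1 CPM) and 2.74-fold higher at P0 (2.32 to 3.25; 15.9 against 5.79 CPM). Ptn was 2.13-fold higher at E16.5 (669 against 314 CPM), 1.86-fold at P0 (395 against 213 CPM) and 2.57-fold at 13w (223 against 86.5 CPM), the 13w levels lying near or below that of cells with blood markers. Outside the class Ptn and Mdk were instead 1.50-fold and 1.52-fold lower in cycling cells at E16.5. Mdk was 2.63-fold lower in cycling cells there at 13w (8.85 against 23.3 CPM; interval of the fold 2.20 to 3.17). The difference between the 2 classes was not tested.

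**Figure D4:**
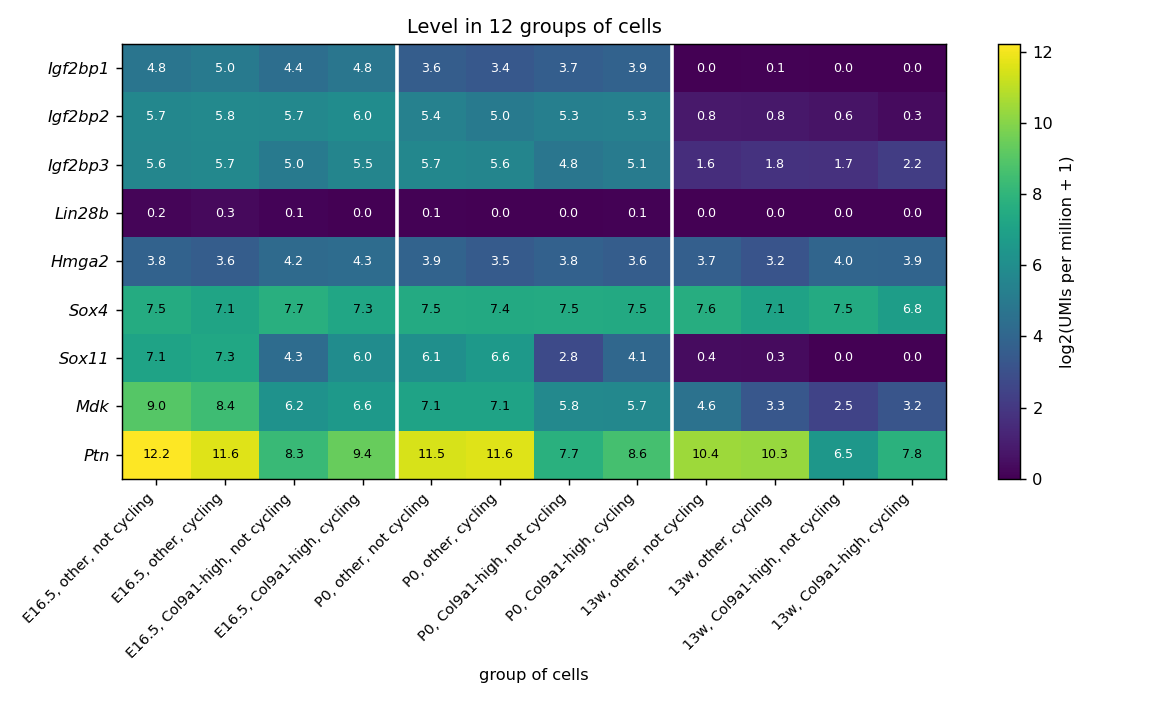
Colour and printed number give log2(CPM + 1) of each member in the 12 groups made by stage, Col9a1 class and cycling class. Ptn is at 4791, 2857 and 1379.5 CPM in the cells low in Col9a1 and not cycling, in stage order, and the Igf2bp genes and Sox11 are below 4 CPM in all 4 groups at 13w.

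Further classes were cut after the values above had been seen and are descriptions only, each taking cells with at least 3 UMIs per 10000 of 1 gene. They used Dpt of fibroblasts, Prg4 (lubricin) of the joint surface, Bglap (osteocalcin) of osteoblasts and Col10a1 of hypertrophic chondrocytes. Each class is named by its gene and not by a cell type. At 13w Bglap itself was at 299 CPM in Col9a1-high cells and 114 CPM in the rest, so Bglap-high cells were not taken to be osteoblasts. At 13w the 2948 Dpt-high cells held 63.4% of all Ptn UMIs in 27.3% of all UMIs, at 2096 CPM. At E16.5 the 146 Dpt-high cells had Ptn at 9674 CPM and Mdk at 1253 CPM. The Dpt limit cut through a continuous range, with 639 adult cells from 2 to 3 and 571 from 3 to 4 UMIs per 10000.

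Adult Mdk was concentrated in few cells. The 80 cells with most Mdk, the top 1 in 100, held 39.5% of its UMIs, and a UMI was seen in 9.72% of adult cells where 17.9% would hold one had the UMIs been spread by depth alone. Of those 80 cells, 53.8% were Bglap-high, a class of 9.23% of all adult cells, 7.50% were Prg4-high (2.34% of all) and 1.25% were Col9a1-high (20.2% of all). The 741 Bglap-high cells had Mdk at 38.7 CPM, and the 188 Prg4-high cells at 89.1 CPM from 123 UMIs. Igf2bp3, with 260 adult UMIs, was seen in 3.11% of adult cells where 3.16% would follow from depth alone.

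Hmga2 was uneven at every age. It was seen in 16.7% of cells at E16.5 where depth alone gives 25.5%, in 14.3% at P0 against 23.6% and in 11.6% at 13w against 15.4%. The 46, 40 and 80 cells with most Hmga2 held 21.4%, 29.7% and 25.1% of its UMIs. Its level in Col10a1-high cells did not set these apart, since they held 36.0% of Hmga2 UMIs in 30.7% of all UMIs at P0 and 12.5% in 10.6% at 13w. Sox4 was higher in Col10a1-high cells than over all kept cells, at 279.8, 258 and 243 CPM. Dpt-high cells held Sox4 at 296, 89.6 and 207 CPM, so at E16.5 they were above the Col10a1-high cells. At 13w Sox4 was seen in 33.8% of thinned Col10a1-high cells, beside 32.5% of all and 38.8% of Dpt-high cells. Its relative Sox11 was at 10.4 and 6.20 CPM in Col10a1-high cells at E16.5 and P0 and at 0 UMIs at 13w.

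Cells carried several members at once more often in the embryo. In thinned cells the mean number of members detected was 2.40, 1.63 and 0.965 by age, and 4 or more were detected in 17.7%, 4.54% and 0.0908% of cells. No member was detected in 6.17%, 13.8% and 31.4%. Igf2bp1 and Hmga2 were seen together in 25 cells at E16.5 where 13.3 would follow from their shares alone, and Igf2bp2 and Hmga2 in 43 where 24.7 would. At P0 there was no such excess, with 5 cells where 4.80 would follow for the first pair and 14 where 15.4 would for the second. Mdk and Ptn were seen together 1.13, 1.18 and 1.58 times as often as their shares alone give.

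Over the 12 groups the 3 Igf2bp genes ran closely together, with Pearson r on log2(CPM + 1) of 0.99 for Igf2bp1 and Igf2bp2 and 0.97 for Igf2bp1 and Igf2bp3. Sox11 and Mdk had r of 0.96, while Hmga2 and Igf2bp1 had 0.31, Sox4 and Sox11 0.22, and Hmga2 and Ptn -0.40. The 12 groups come from 3 libraries and share their depth and stage, so these are descriptions across groups. Among 9266 genes compared, those most like Igf2bp1 were Col26a1 (r of 0.996), Eef1g (0.994) and Tmeff1 (0.992), and those most like Igf2bp2 were Eef1b2 (0.993), Gpc3 (0.992) and Igf2bp1 (0.987). Igf2bp3 was most like Eef1b2 (0.990), H19 (0.987) and Bex2 (0.986).

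Among the genes most like Sox11 were Evl (0.982) and Chd3 (0.981). Mdk was most like Ptov1 (0.992), Bcl9 (0.985) and Nkd1 (0.983), and Ptn like Fam89b (0.990), Tnrc6c (0.987) and Cplane1 (0.987). The genes nearest to Hmga2 were less alike, namely Bnip3l (0.885), Gsg1l (0.840) and Foxo1 (0.838), as were those nearest to Sox4, among them Ccs (0.816) and Gpr153 (0.798). For Lin28b, with its few UMIs, the nearest were Stfa1 (0.895), Kcne1 (0.882) and Cstdc5 (0.876), which at such counts is no finding.

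The wider pathways around the members were described by lists of partner genes, also chosen with earlier results of these data known. Among 18 IGF2BP targets, partners and genes of the m6A machinery, 2 were at least 2-fold lower at P0 than at E16.5 (all genes 13.7%), Dhx9 (2.09-fold) and Mettl3 (2.06-fold), with 0 higher and a median log2 difference of -0.24. At 13w 2 of 18 were lower than at P0 (all genes 11.7%), so the list did not stand apart from all genes by count at either step. The adult pair were the imprinted growth factor Igf2 and its neighbour H19, a non-coding RNA. Igf2 was at 1046 CPM at P0 and 5.02 at 13w, 208-fold lower, and H19 at 1858 and 9.19 CPM, 202-fold lower. The list's median of -0.16 was close to that of all genes.

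On the let-7 and LIN28 axis, 3 of 21 measured genes were lower at P0 than at E16.5 (all genes 13.7%), E2f2 (3.05-fold), Cdc25a (2.33-fold) and Ccnd2 (2.31-fold), which drive the cell cycle, with 0 higher. From P0 to 13w, 3 of 21 were higher (all genes 12.1%), E2f2 (4.14-fold), Hmga1 (3.49-fold) and Myc (2.19-fold), and 3 were lower (all genes 11.7%), Mycn (3.06-fold), Ccnd1 (3.00-fold) and Igf1r (2.86-fold). By count the list was near all genes, with medians of -0.35 and -0.46. Hmga1 has a near-identical copy, Hmga1b, in the annotation, so its counts are uncertain. E2f2 was also 8.69-fold higher in cycling cells at 13w, where summed blood markers were at 463 CPM against 141 CPM in the rest. In adult Col9a1-high cells E2f2 was at 1.16 CPM, against 5.91 CPM in the rest. How much of it came from blood cells was not tested.

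Some HMG and chromatin genes differed from Hmga2 in the cycling contrast, a class that Mki67 and Top2a had set. Others did not reach 2-fold. Dnmt3a was lower in cycling cells, as Hmga2 was, by 1.20-, 1.14- and 1.35-fold in stage order. Hmgn1 was 1.27-, 1.20- and 1.29-fold higher. The adult cycling cells also held more blood markers than the rest, as given above. In cycling cells 7, 6 and 10 of 16 were higher in stage order (all genes 4.12%, 3.93% and 10.2%), with 0 lower, led by Hmgb2 (7.83-, 6.09- and 11.6-fold), an HMG-box protein of proliferating cells, and by the DNA methylation cofactors Uhrf1 (5.71-, 12.8- and 44.7-fold) and Hells (3.09-, 4.57- and 13.6-fold). At P0 5 of 16 were lower than at E16.5 (all genes 13.7%), including Hells (4.19-fold), Uhrf1 (3.17-fold) and Ezh2 (2.73-fold), beside 14 of 20 cell-cycle genes. From P0 to 13w 3 of 16 were lower (all genes 11.7%), Hmgb3 (2.80-fold), Hmgn1 (2.33-fold) and Dnmt3a (2.12-fold), 1 was higher, and 0 of 20 cell-cycle genes were called either way.

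Of 9 measured SOX relatives and described SOXC targets, 4 were lower at P0 (all genes 13.7%), among them Sox18 (4.63-fold), Tead2 (4.20-fold) and Tubb3 (3.11-fold), and Gdf5, a joint-forming signal, was 4.72-fold higher. From P0 to 13w 5 of 9 were lower (all genes 11.7%), among them Sox12 (3.39-fold), the third SOXC gene, Sox18 (3.00-fold) and Tead2 (2.60-fold). Tead2 was also lower in Col9a1-high cells, 4.97-fold at E16.5 and 4.19-fold at P0, whereas Sox9, the chondrocyte master factor, was 2.61-fold and 2.44-fold higher there.

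Receptors of midkine and pleiotrophin moved in both directions. At P0 Sdc4 (4.04-fold) and Sdc3 (2.77-fold) were higher than at E16.5, and Gpc2 (6.06-fold), Ptprz1 (2.86-fold) and Itga4 (2.81-fold) were lower, so 2 higher and 3 lower of 15 measured (all genes 6.23% and 13.7%). From P0 to 13w, Ptprz1, the receptor phosphatase bound by pleiotrophin, was 10.5-fold higher (2.20 to 23.1 CPM) and Sdc3 2.08-fold higher, and Itga4, Itga6 and Sdc1 were lower, so 2 higher and 3 lower of 14 measured (all genes 12.1% and 11.7%). In Col9a1-high cells 5 of 16 measured receptors were lower and 1 higher at E16.5, 2 of 14 lower and 2 higher at P0, and 7 of 14 lower and 1 higher at 13w, beside 24.9%, 21.2% and 19.1% of all genes lower. The higher ones were the syndecans Sdc4, at E16.5 (2.24-fold) and P0 (2.46-fold), and Sdc3, at P0 (4.38-fold; 74.7 against 17.1 CPM) and 13w (2.43-fold). Lower ones included Alk (6.80-fold) and Gpc2 (5.68-fold) at E16.5, Itgb3 (6.15-fold) and Lrp1 (2.42-fold) at P0, and Itga4 (12.1-fold), Itgb3 (5.96-fold) and Ptprs (3.12-fold) at 13w. Of 12 cartilage matrix genes 11 were higher at P0 than at E16.5, 6 were lower and 1 higher at 13w than at P0, and all 12 were higher in Col9a1-high cells at E16.5 and P0, a class that Col9a1 itself had set.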

How the data were processed

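The authors deposited filtered gene-by-cell matrices of whole-number UMI counts, 1 per stage, made with Cell Ranger 6.1.2 against GRCm39, per the submitters' processing notes and the file headers; the barcode and gene lists gave the names. The 9 genes, the partner lists and the marker lists were chosen with earlier results of these data known. Counts were summed over kept cells and divided by all UMIs of those cells. With 1 library per stage, no count model was fitted. Cells were thinned without replacement to 3000 UMIs (seed 1). Genes named beyond the members were up to 3 per list and direction with the largest ratio past 2-fold, and the 3 nearest per member by Pearson r among genes reaching 10 CPM in 1 of the 12 groups; some of these genes are not reported here. No doublets were removed: the automatic Scrublet threshold marked 5, 1 and 0 cells and was taken not to have worked, so an alternative removed the highest scores, 181, 146 and 572 cells. Coordinates were not used, because the reference at hand was GRCm38. Every matrix column was matched to a stage. Scripts were tested on simulated data. Tools were Python 3.11.15, NumPy 2.4.6, SciPy 1.17.1, pandas 2.3.3, matplotlib 3.10.9, scanpy 1.11.5, R 4.3.3 and edgeR 4.0.16, the last only for TMM factors.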

Additional observations from a re-analysis of the deposited data

How the results depend on the processing

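Over 16 counts of lower or higher members, 174 of 184 recomputed values were within 1.5 times the reported count and 10 were not, all of these 10 in the cycling contrast, where the reported counts were 0. Within that limit, Ptn took the count lower at P0 than at E16.5 from 4 to 3 with TMM factors, median-of-ratios factors and equal group weights, and the count lower at 13w than at P0 from 5 to 6 with equal group weights, and the count lower in adult Col9a1-high cells went from 2 to 3 with thinned cells. The count of members higher in cycling cells at P0 became 1 with classes from thinned cells (Sox11), 1 without high Scrublet scores (Sox11), 2 with 3 or more UMIs against 0 (Sox11 and Ptn) and 2 with 3 or more other mitotic genes (Sox11 and Ptn). The count lower at 13w became 1 with cells thinned to 3000 UMIs (1 member that was not measured otherwise), 2 with classes from thinned cells, 1 without high Scrublet scores, 1 with 3 or more UMIs against 0, 1 with only cells that are not Col9a1-high and 1 with 3 or more other mitotic genes; Hmga2 was at -1.33 with thinned classes and Mdk at -1.40 outside the Col9a1-high class, on the log2 scale. The cause was not tested. Of 661 recomputed ratios of single members 0 reversed a call, 15 gained or lost one, and 27 had the opposite sign without a call. The alternative without barcodes shared between libraries was chosen after seeing the data. No paired analysis was possible because each stage was 1 library, and for the same reason no library could be left out. Depth limits Lin28b at every stage and Igf2bp1, Igf2bp2 and Sox11 within adult cell groups.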
